A study of Arabidopsis thaliana with 12 samples.

Results

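The genes compared here were those with at least 1 TPM (a length-scaled share of all transcripts) in all 3 samples of either iSB09-treated genotype, and their levels were compared between CsPYL1-5m and WT seedlings. By this rule 19656 of the 37336 genes in the table were taken. Of them, 18589 passed in both genotypes, 545 passed only through CsPYL1-5m and 522 only through WT. The value that decided membership lay between 1 and 1.1 TPM for 162 genes just inside the rule and between 0.9 and 1 TPM for 144 genes just outside it.

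The 2 treated groups were CsPYL1-5m seedlings given 5 μM iSB09 for 3 hours and WT Col-0 seedlings given the same treatment, with 3 samples each. Mock-treated CsPYL1-5m and WT seedlings (0.1% DMSO, 3 samples each) gave the background of the genotypes without the compound. The study's methods give the seedlings an age of 10 days and 3 independent experiments, and the sample labels give 12 days in liquid media. CsPYL1-5m is an engineered form of the sweet orange ABA receptor CsPYL1 and iSB09 is a synthetic agonist designed to fit it. In these plants an HA-tagged CsPYL1-5m was expressed from the 35S promoter, which is active in most cell types, in otherwise unchanged Col-0, and homozygous progeny were used. A transgenic line expressing unmodified CsPYL1 was not among these samples, so that expression of the receptor, its engineered pocket and the insertion of the construct cannot be told apart. The transgene is a citrus gene and is not among the genes analysed here, so that it could not serve to check the labels. Whole seedlings were sampled, and fewer cells of a type cannot be told apart from less RNA per cell.

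Abscisic acid (ABA) is the plant hormone of drought. It is bound by soluble receptors of the PYR/PYL family, and the occupied receptor holds clade A protein phosphatases (PP2Cs) in an inactive complex. This frees SnRK2 kinases, which phosphorylate ABF transcription factors, and ABFs bind ABA-responsive elements (ABREs) upstream of genes for protective proteins, sugar and amino acid metabolism and the phosphatases themselves. An agonist acts at the same receptor pocket, so the tested genes were read here by their place in this pathway and in the responses downstream of it.

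Reads on genes, recovered from the deposited values, came to 25746050 to 30119965 in iSB09-treated CsPYL1-5m samples and 21502004 to 21754261 in iSB09-treated WT samples. Mock-treated CsPYL1-5m samples were also deeper, with 29158403 to 30696833 reads against 21522480 to 21677393 in mock-treated WT, so depth, or a batch behind it, and genotype cannot be told apart. For a gene of 1 kilobase, 3 reads were worth 0.158 to 0.235 TPM over all 12 samples. Replicate 2 of iSB09-treated WT stood apart, with 3.999% of tested genes more than 1 log2 unit from the mean of the other 2 samples, against 1.93% and 0.590% for WT replicates 1 and 3, and 0.244 to 0.341% for the CsPYL1-5m samples. Leaf mesophyll markers summed to 11827 to 15625 TPM in iSB09-treated CsPYL1-5m and 15035 to 18251 TPM in iSB09-treated WT with 0 of 4 called, and root markers to 3310 to 3643 TPM in CsPYL1-5m and 2951 to 3509 TPM in WT with 0 of 5 called. The root sum was almost all PYK10, and the lower-level root markers SCR and SHR are given with the root genes. Defining markers of both organs were present in every library.

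Under iSB09, 2121 of 19656 genes, or 10.8%, differed between the genotypes by limma on log2(TPM + 0.5), where a call needed an adjusted p under 0.05 and a log2 difference of more than 1 in size. Of these, 1239 were higher in CsPYL1-5m than in WT (6.3% of the genes tested) and 882 were lower (4.49%). The higher genes reached further, since 425 exceeded a log2 difference of 2, 143 exceeded 3 and 52 exceeded 4, whereas 102, 9 and 2 genes were lower by as much. Differences are on the log2(TPM + 0.5) scale, which understates the change of low genes, and values are given as mean ± SD (n = 3 per group) for TPM and ± SE for log2 differences. The median log2 difference was 1.59 over the higher and −1.29 over the lower genes. In the mock samples the same 2 sets had median differences of −0.00 and −0.11. There, 13 of 19530 genes were called, or 0.0666%, and they held 8 of the 956 higher genes and 2 of the 861 lower genes that could be tested in mock samples.

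Of the 545 genes that passed the level rule only through CsPYL1-5m 249 were called higher, and of the 522 that passed only through WT 161 were called lower. The groups did not overlap for 1238 of the 1239 higher and 877 of the 882 lower genes, beside 19.8% of all tested genes with every CsPYL1-5m sample above every WT sample and 42.7% with every one below. The median log2 difference of all tested genes was −0.17, against −0.01 in mock samples. With median-ratio scaling, which brought this median to −0.01, all 1239 higher genes were called again among 1543 (7.85%), and 556 of the 882 lower genes were called again as the 556 lower genes (2.83%), so that the higher share of calls was 73.5% and not 58.4%. Genes called higher took up 12.7, 14.1 and 14.4% of all TPM in CsPYL1-5m, against 3.63, 3.29 and 3.72% in WT. In mock samples the same genes held 2.78% in CsPYL1-5m and 2.36% in WT on average. Genes called lower took up 1.76, 1.60 and 1.82% in CsPYL1-5m, against 4.05, 5.91 and 4.48% in WT. TPM has a fixed sum, so a larger share of some genes lowers the values of the others. Named genes whose lower calls were lost under median-ratio scaling are marked below where they occur.

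Genes were ranked among those called, with groups apart and a mean of at least 10 TPM in the higher group. The 10 largest positive differences were those of late embryogenesis abundant (LEA) and other desiccation genes, a phosphatase and genes of uncharacterized product. None averaged above 1.03 TPM in mock seedlings of either genotype. RD29B, a hydrophilic protein gene long used as a marker of ABA response, was at 455, 636 and 704 TPM in CsPYL1-5m, against 5.26, 3.75 and 4.84 TPM in WT. Every treated CsPYL1-5m sample was therefore far above every treated WT sample, with a log2 difference of 6.86 ± 0.18 (SE, limma adjusted p = 1.81e-06). HAI3, which encodes a clade A PP2C, had 63.7, 76.7 and 80.1 TPM in CsPYL1-5m, against 0.364, 0.524 and 0.472 TPM in WT. The WT values of this gene rest on 7 to 10 reads per sample, and its log2 difference was 6.28 ± 0.12 (SE, limma adjusted p = 1.04e-06). GOLS2, encoding a galactinol synthase that starts raffinose synthesis, was at 58.7, 73.2 and 83.9 TPM in CsPYL1-5m, against 1.19, 0.492 and 0.656 TPM in WT, with a log2 difference of 5.85 ± 0.22 (SE, limma adjusted p = 6.72e-06).

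LEA proteins are small and hydrophilic and accumulate in drying seeds and tissues, where they protect membranes and enzymes. LEA7 had 799, 973 and 1035 TPM in CsPYL1-5m, against 16.8, 8.64 and 13.9 TPM in WT. AT3G02480, of the LEA family, was the most abundant of the 10 and was at 1279, 1611 and 1714 TPM in CsPYL1-5m, against 29.2, 18.7 and 22.7 TPM in WT. AT3G17520, another LEA family gene, had 308, 369 and 402 TPM in CsPYL1-5m, against 4.39, 3.20 and 4.5 TPM in WT. The last LEA family member among them, AT3G15670, was at 84.3, 103 and 103 TPM in CsPYL1-5m, against 1.07, 1.15 and 1.0 TPM in WT. The log2 differences of these 4 were 6.14 ± 0.23 for LEA7, 6.01 ± 0.18 for AT3G02480, 6.32 ± 0.15 for AT3G17520 and 5.95 ± 0.11 for AT3G15670. The remaining 3 genes were AT5G05220 and AT3G27250, whose products are uncharacterized in the annotation, and AT5G50360, annotated with a von Willebrand factor A domain. AT5G05220 had 95.0, 120.0 and 123 TPM in CsPYL1-5m, against 0.704, 0.609 and 1.02 TPM in WT. AT3G27250 was at 121, 151 and 163 TPM in CsPYL1-5m, against 2.53, 0.908 and 0.952 TPM in WT. AT5G50360 had 87.4, 105 and 115 TPM in CsPYL1-5m, against 0.859, 1.36 and 1.24 TPM in WT. Their log2 differences were 6.47 ± 0.15 for AT5G05220, 6.30 ± 0.30 for AT3G27250 and 5.96 ± 0.15 for AT5G50360, and the largest limma adjusted p among the 10 genes was 1.8e-05. Of the 10 genes, HAI3, GOLS2, AT3G15670, AT5G05220, AT3G27250 and AT5G50360 were tested only through their CsPYL1-5m level, where they were high. The last WT value of AT3G15670 lay just under 1 TPM. LEA7 overlaps another annotated locus.

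**Figure D1:**
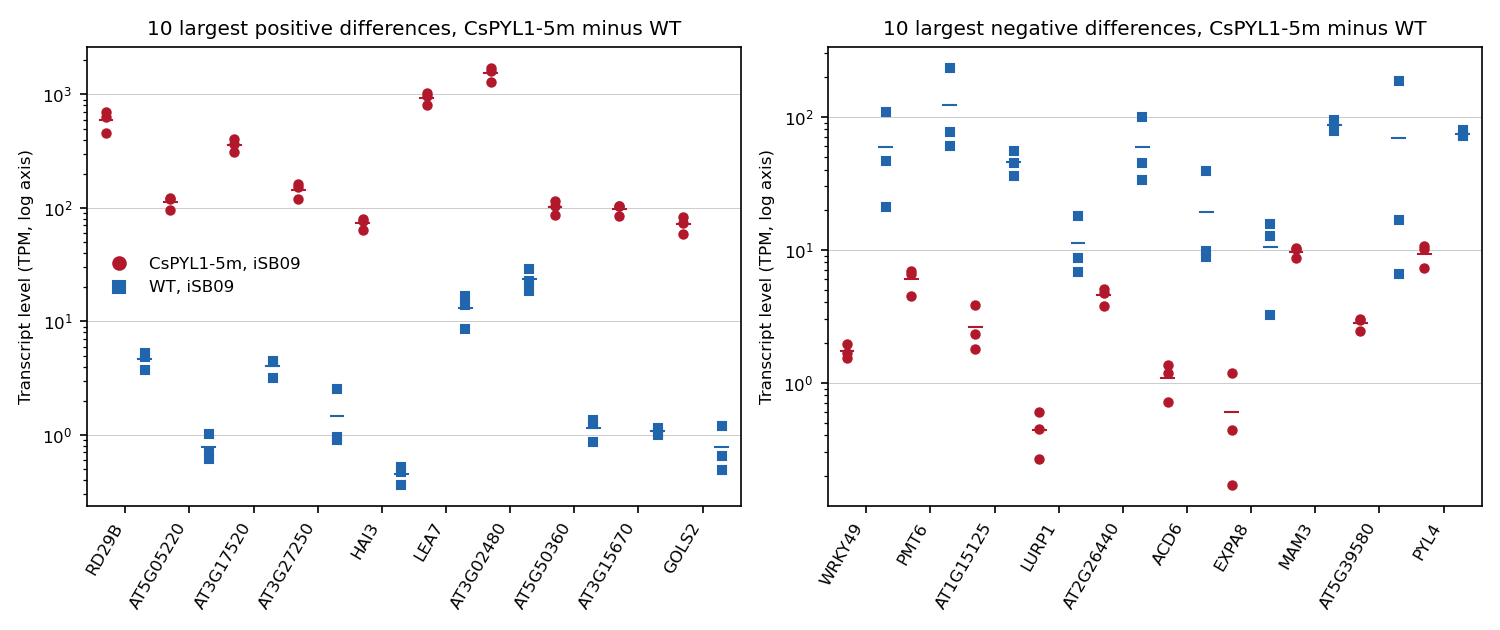
Transcript levels (TPM, log axis) of the 10 genes with the largest positive (left) and the 10 with the largest negative (right) log2 difference under iSB09, for each CsPYL1-5m sample (circles) and each WT sample (squares), with bars at the group means. Groups that do not overlap were a condition for entry among the 20 genes. Among the genes lower in CsPYL1-5m the WT samples are spread more widely, as for AT5G39580 with 6.50 to 184 TPM.

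The 300 bases before the annotated gene start were searched on both strands for 2 forms of the ABRE, ACGTGGC and ACGTGTC, the letters bound by ABF factors. Of the 10 genes above, 7 held at least 1 match, and 0 of the 10 genes with the largest negative differences did. The windows of 5 genes with matches are printed first, and that of PYL4, which was much lower in CsPYL1-5m and holds none, follows for contrast. Capitals mark ABRE matches on either strand, which can overlap each other, sequences are from the TAIR10.1 assembly of RefSeq, and each is given 5′ to 3′ on the strand of its gene.
RD29B, chr5:21236721-21237020, plus strand: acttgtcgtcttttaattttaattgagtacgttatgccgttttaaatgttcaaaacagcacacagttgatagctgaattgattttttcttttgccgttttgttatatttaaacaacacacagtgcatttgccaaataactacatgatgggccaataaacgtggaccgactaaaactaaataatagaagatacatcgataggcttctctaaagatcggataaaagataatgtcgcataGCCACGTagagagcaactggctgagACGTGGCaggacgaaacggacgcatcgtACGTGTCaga
AT5G05220, chr5:1549951-1550250, plus strand: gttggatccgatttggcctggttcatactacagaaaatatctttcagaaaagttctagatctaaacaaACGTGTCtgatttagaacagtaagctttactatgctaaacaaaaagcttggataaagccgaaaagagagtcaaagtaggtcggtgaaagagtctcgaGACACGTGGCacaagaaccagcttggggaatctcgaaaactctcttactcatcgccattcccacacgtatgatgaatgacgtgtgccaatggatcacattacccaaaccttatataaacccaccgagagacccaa
LEA7, chr1:19619424-19619723, plus strand: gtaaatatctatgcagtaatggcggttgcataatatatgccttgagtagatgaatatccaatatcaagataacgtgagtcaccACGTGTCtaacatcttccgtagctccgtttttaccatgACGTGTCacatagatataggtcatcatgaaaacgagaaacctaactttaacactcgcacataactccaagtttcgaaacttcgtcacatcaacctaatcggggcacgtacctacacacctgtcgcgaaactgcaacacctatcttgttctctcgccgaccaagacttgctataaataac
AT3G17520, chr3:6000448-6000747, minus strand: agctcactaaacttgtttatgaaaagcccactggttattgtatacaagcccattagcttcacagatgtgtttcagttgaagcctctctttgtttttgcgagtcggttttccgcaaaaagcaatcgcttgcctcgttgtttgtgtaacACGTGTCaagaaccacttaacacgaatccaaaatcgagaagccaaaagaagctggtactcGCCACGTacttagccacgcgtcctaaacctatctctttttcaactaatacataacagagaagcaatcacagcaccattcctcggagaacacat
AT3G15670, chr3:5310989-5311288, minus strand: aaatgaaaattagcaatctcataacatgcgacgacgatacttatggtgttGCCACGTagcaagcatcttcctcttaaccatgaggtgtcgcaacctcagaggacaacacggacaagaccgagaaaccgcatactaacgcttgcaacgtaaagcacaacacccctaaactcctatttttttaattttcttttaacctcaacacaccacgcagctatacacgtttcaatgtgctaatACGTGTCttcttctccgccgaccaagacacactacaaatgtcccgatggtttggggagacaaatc
PYL4, chr2:16049618-16049917, plus strand: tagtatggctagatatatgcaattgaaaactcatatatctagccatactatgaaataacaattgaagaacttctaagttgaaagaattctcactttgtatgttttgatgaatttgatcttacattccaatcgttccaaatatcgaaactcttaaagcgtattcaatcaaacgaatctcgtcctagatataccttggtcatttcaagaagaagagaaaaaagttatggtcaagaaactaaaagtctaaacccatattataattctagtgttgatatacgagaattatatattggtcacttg

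Over all genes, the share of windows with an ABRE match rose with the size of the positive difference. The size classes given here are nested, so the larger classes hold the genes of the smaller ones. A match was present in 23 of 52 windows (44.2%) of genes higher by more than 4 log2 units, in 117 of 423 (27.7%) of those higher by more than 2 and in 228 of 1227 (18.6%) of all higher genes. It was present in 30 of 882 windows (3.40%) of lower genes and 1592 of 19527 (8.15%) of all tested genes, beside 2240 of 38092 (5.88%) of all annotated genes. More than 1 match was found in 8.15% of windows of higher genes, 0.340% of lower genes and 1.83% of tested genes. The core ACGTG alone, which both ABRE forms contain, was present in 45.7% of windows of higher, 22.3% of lower and 26.7% of tested genes. The drought-responsive element of CBF and DREB factors (ACCGAC or GCCGAC) was present in 13.3% of windows of higher, 5.67% of lower and 9.19% of tested genes. Its share also rose with size, to 72 of 423 windows above 2 log2 units and 20 of 52 (38.5%) above 4. Of the 10 genes with the largest positive differences 7 held this element, as did 1 of the 10 with the largest negative differences. The rise with size was therefore not particular to the ABRE. These shares are descriptions of the letters in the windows and were not tested.

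**Figure D2:**
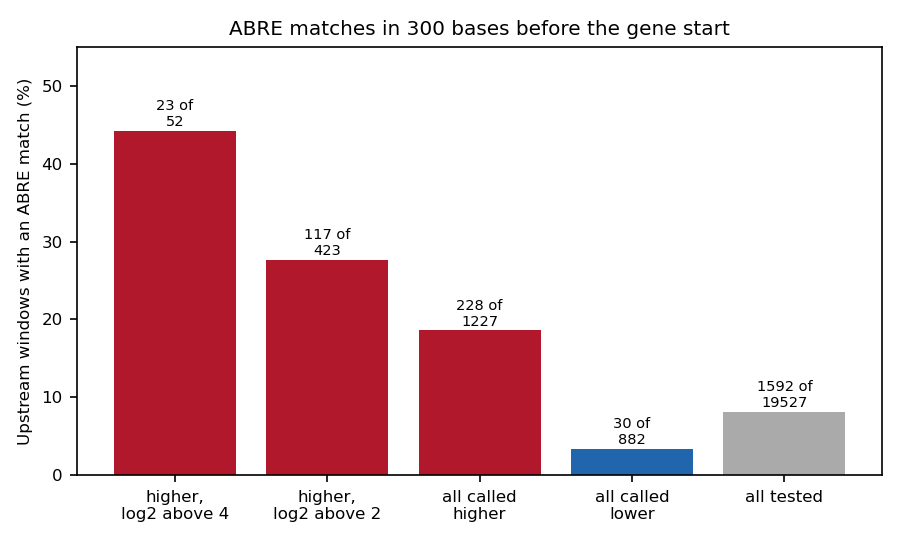
Share of upstream windows (300 bases, %) with at least 1 ABRE match for genes higher in CsPYL1-5m than in WT under iSB09 (red), genes lower (blue) and all tested genes (gray), with the number of windows above each bar. The share is 44.2% for genes higher by more than 4 log2 units, 18.6% for all higher genes, 3.40% for lower genes and 8.15% for all tested genes.

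By the same ranking, the 10 largest negative differences were those of genes of defense, cell walls, transport and glucosinolate synthesis, and of 1 ABA receptor. In mock seedlings they averaged 1.71 to 372 TPM in CsPYL1-5m and 5.10 to 362 TPM in WT. WRKY49, a transcription factor gene, was at 1.94, 1.68 and 1.52 TPM in CsPYL1-5m, against 20.9, 109 and 46.4 TPM in WT, with a log2 difference of −4.44 ± 0.52 (SE, limma adjusted p = 0.000641). PMT6, which encodes a polyol and monosaccharide transporter, had 6.52, 4.46 and 6.92 TPM in CsPYL1-5m, against 60.3, 233 and 76 TPM in WT, with a log2 difference of −4.01 ± 0.47 (SE, limma adjusted p = 0.000663). In both genes WT replicate 2 was the highest sample, at more than 2 times the next. AT1G15125, annotated as a methyltransferase that uses S-adenosylmethionine, was at 2.31, 1.79 and 3.81 TPM in CsPYL1-5m, against 55.5, 36.0 and 44.9 TPM in WT, with a log2 difference of −3.90 ± 0.25 (SE, limma adjusted p = 6.31e-05). AT2G26440, annotated as an inhibitor of invertase and pectin methylesterase, had 5.05, 3.78 and 4.72 TPM in CsPYL1-5m, against 33.6, 99.1 and 44.8 TPM in WT, with a log2 difference of −3.43 ± 0.36 (SE, limma adjusted p = 0.000442). AT5G39580 encodes a peroxidase and was at 2.42, 3.02 and 2.95 TPM in CsPYL1-5m, against 6.50, 184 and 16.8 TPM in WT, a range of levels set by WT replicate 2, with a log2 difference of −3.1 ± 1.06 (SE, limma adjusted p = 0.0445). Lost under median-ratio scaling was the call of AT5G39580 (−2.94, limma adjusted p = 0.0623), at the log2 difference in parentheses. Leaving out 1 sample ended calls for AT5G39580 without CsPYL1-5m replicates 1, 2 or 3 or WT replicate 3 (−3.45 to −3.02, limma adjusted p up to 0.113). Without WT replicate 1, the log2 difference was −4.10 for AT5G39580. Without WT replicate 2, the log2 difference was −3.84 for WRKY49, −3.42 for PMT6 and −1.74 for AT5G39580. AT1G15125 overlaps another annotated locus.

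LURP1 is a gene of late, sustained upregulation in pathogen response, and ACD6 encodes an ankyrin protein that promotes salicylic acid defense. LURP1 had 0.450, 0.265 and 0.605 TPM in CsPYL1-5m, against 6.84, 17.8 and 8.71 TPM in WT, and ACD6 was at 1.19, 0.716 and 1.36 TPM in CsPYL1-5m, against 9.77, 39.0 and 8.77 TPM in WT. Their log2 differences were −3.53 ± 0.34 for LURP1 and −3.32 ± 0.53 for ACD6. The cell wall loosening gene EXPA8 had 1.18, 0.170 and 0.438 TPM in CsPYL1-5m, against 15.5, 3.19 and 12.6 TPM in WT, with a log2 difference of −3.17 ± 0.59 (SE, limma adjusted p = 0.00419). MAM3 encodes a synthase that lengthens methionine for aliphatic glucosinolates and was at 10.05, 8.60 and 10.2 TPM in CsPYL1-5m, against 94.2, 77.9 and 88.0 TPM in WT. PYL4 encodes an ABA receptor and had 10.6, 7.21 and 10.04 TPM in CsPYL1-5m, against 79.6, 71.9 and 72.3 TPM in WT. These 2 genes had the tightest WT samples of the 10, with log2 differences of −3.11 ± 0.10 for MAM3 and −2.95 ± 0.14 for PYL4. LURP1, ACD6 and EXPA8 were tested only through their WT level, where they were high. The log2 difference without WT replicate 2 was −2.64 for ACD6 and −3.83 for EXPA8.

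Among ABA receptors, which bind the hormone and the agonist, 5 of 9 tested genes were lower in CsPYL1-5m and 0 were higher, with a median log2 difference of −1.05 beside −0.17 over all genes. Of the 14 receptor genes 5 did not reach 1 TPM in all 3 samples of either group. Counts for this and the later lists stand beside 6.3% of all tested genes called higher and 4.49% called lower. The summed receptor transcripts came to 93.2, 77.5 and 81.2 TPM in iSB09-treated CsPYL1-5m, against 235, 242 and 234.4 TPM in iSB09-treated WT, 672 to 722 TPM in mock CsPYL1-5m and 657 to 720 TPM in mock WT. Levels in treated CsPYL1-5m were thus the lowest of the 4 groups. PYL4 was given above, and the related PYL6 was at 0.336, 0.0702 and 0.241 TPM in CsPYL1-5m, against 2.56, 1.41 and 1.76 TPM in WT. PYL6 was tested only through its WT level. The CsPYL1-5m values of PYL6 rest on 2 to 10 reads, and in mock samples it averaged 35.8 TPM in CsPYL1-5m and 36.8 TPM in WT. PYL5 had 6.16, 4.69 and 4.73 TPM in CsPYL1-5m, against 15.7, 22.3 and 16 TPM in WT, with a log2 difference of −1.69 ± 0.17 (SE, limma adjusted p = 0.000337). PYL8, a receptor known for its role in roots, was at 30.1, 22 and 24.0 TPM in CsPYL1-5m, against 65.4, 84.9 and 71.3 TPM in WT, with a log2 difference of −1.53 ± 0.14 (SE, limma adjusted p = 0.000247). PYR1 had 15.4, 14.9 and 15.8 TPM in CsPYL1-5m, against 33.3, 29.7 and 34.3 TPM in WT, with a log2 difference of −1.05 ± 0.08 (SE, limma adjusted p = 0.000111). PYL1, the Arabidopsis namesake of the transgene, averaged 12.7 ± 2.81 TPM in CsPYL1-5m and 19.3 ± 2.89 TPM in WT, and its log2 difference of −0.60 was under the size set for a call. PYL2, PYL7 and PYL9 had log2 differences of −0.56 ± 0.27 for PYL2, −0.26 ± 0.22 for PYL7 and 0.07 ± 0.10 for PYL9, with overlapping groups. With median-ratio scaling 4 receptors were called lower and 0 higher. Median-ratio scaling ended the call of PYR1 (−0.88), at the log2 difference in parentheses. PYL7 overlaps another annotated locus.

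All 9 clade A PP2C genes were higher in CsPYL1-5m, by log2 differences of 1.32 to 6.28, with a median of 3.05. HAI3 and AHG1 were tested only through their CsPYL1-5m level. These phosphatases are the direct partners of the receptors and keep SnRK2 kinases inactive. Their summed level was 1755, 1966 and 1991 TPM in iSB09-treated CsPYL1-5m, against 269, 282 and 267 TPM in iSB09-treated WT, whereas mock samples held 89.7 to 95.2 TPM in CsPYL1-5m and 81.3 to 95.9 TPM in WT. HAI1 was at 288, 330.5 and 319.9 TPM in CsPYL1-5m, against 13, 12.6 and 15 TPM in WT, and HAI2 had 132, 153 and 165 TPM in CsPYL1-5m, against 4.11, 3.74 and 4.45 TPM in WT. Together with HAI3 these had the largest differences of the family, at log2 differences of 4.49 ± 0.09 for HAI1 and 5.03 ± 0.10 for HAI2. The most abundant member was ABI1, which was at 426, 442 and 435 TPM in CsPYL1-5m, against 93.2, 119.9 and 97.4 TPM in WT. PP2CA followed in level and had 354, 404 and 412 TPM in CsPYL1-5m, against 75.7, 57.1 and 66.7 TPM in WT. ABI2 was at 160.5, 180.5 and 192 TPM in CsPYL1-5m, against 18, 17.2 and 16.9 TPM in WT, and HAB1 had 252, 294 and 289.6 TPM in CsPYL1-5m, against 30.5, 38 and 31.3 TPM in WT. The log2 differences of these 4 were 2.07 ± 0.10 for ABI1, 2.55 ± 0.11 for PP2CA, 3.32 ± 0.08 for ABI2 and 3.05 ± 0.11 for HAB1. HAB2 had the smallest of the 9 and was at 76.4, 83.1 and 96 TPM in CsPYL1-5m, against 33.6, 32.7 and 34.6 TPM in WT. AHG1, a phosphatase mainly of seeds, had 2.17, 2.01 and 2.39 TPM in CsPYL1-5m, against 0.446, 0.10 and 0.50 TPM in WT, and its WT values rest on 2 to 10 reads. ABRE matches were found upstream of 4 of the 9. ABI1 overlaps another annotated locus.

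**Figure D3:**
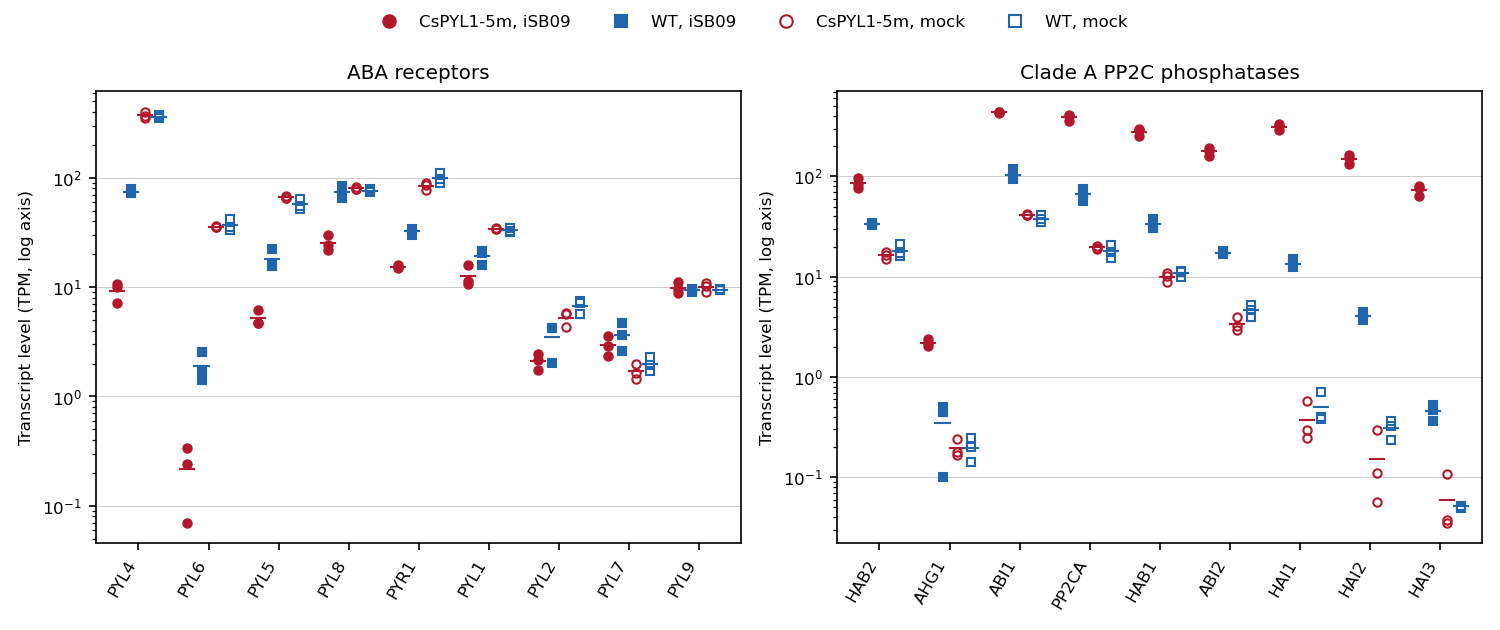
Transcript levels (TPM, log axis) of the 9 tested ABA receptor genes (left) and the 9 clade A PP2C genes (right) in each sample of iSB09-treated CsPYL1-5m and WT (filled circles and squares) and of mock-treated CsPYL1-5m and WT (open circles and squares), with bars at the group means. Receptors from PYL4 to PYR1 lie lowest in treated CsPYL1-5m, at 0.0702 to 30.1 TPM, and every phosphatase lies highest there, at 2.01 to 442 TPM.

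Transcripts of the SnRK2 kinase family, of which the study describes 3 members as activated by ABA, were less uniform. Of the 10 genes 3 were higher and 0 lower, with a median log2 difference of 0.03. SNRK2.7 was at 82.7, 93.4 and 107 TPM in CsPYL1-5m, against 8.52, 3.59 and 5.72 TPM in WT, with a log2 difference of 3.94 ± 0.27 (SE, limma adjusted p = 7.52e-05). SNRK2.6, also called OST1, is the kinase of stomatal closure and had 43.2, 47.6 and 51.7 TPM in CsPYL1-5m, against 19, 25.1 and 23.1 TPM in WT, with a log2 difference of 1.07 ± 0.12 (SE, limma adjusted p = 0.000505). SNRK2.9 averaged 43.3 ± 3.87 TPM in CsPYL1-5m and 19.4 ± 4.79 TPM in WT, with a log2 difference of 1.16 ± 0.16. SNRK2.2 and SNRK2.3 act with SNRK2.6 in ABA response, and their log2 differences were −0.39 ± 0.08 for SNRK2.2 and −0.55 ± 0.07 for SNRK2.3, short of a call. The other 5 kinases had log2 differences of −0.52 to 0.34. Calls ended with 1 sample left out for SNRK2.6 without WT replicate 1 (0.96), with the log2 difference then in parentheses. SNRK2.3 overlaps another annotated locus.

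The ABF and ABI5 group of transcription factors and their partners had 7 of 11 tested genes higher and 0 lower, with a median of 2.096. Of 14 genes 3 did not reach 1 TPM. ABF3 was at 239, 275 and 297 TPM in CsPYL1-5m, against 62.7, 52.7 and 60.9 TPM in WT, and ABF2 had 82.3, 93.4 and 96.2 TPM in CsPYL1-5m, against 24.0, 25.6 and 23 TPM in WT. Both bind ABREs, and their log2 differences were 2.19 ± 0.10 for ABF3 and 1.88 ± 0.08 for ABF2. ABF1 and ABF4 had log2 differences of 0.27 ± 0.06 for ABF1 and 0.998 ± 0.15 for ABF4, so that ABF4 lay just under the size set for a call and was called with median-ratio scaling. ABI5, which holds back seedling growth under ABA, was lower in level and was at 7.83, 9.76 and 12.7 TPM in CsPYL1-5m, against 2.0, 2.46 and 1.46 TPM in WT, with a log2 difference of 2.1 ± 0.22 (SE, limma adjusted p = 0.000398). The ABI5 binding proteins AFP1, AFP2, AFP3 and TMAC2 repress ABA response. AFP1 had 245, 270.2 and 278 TPM in CsPYL1-5m, against 22.6, 23.5 and 23.1 TPM in WT, and AFP3 was at 249, 287 and 302 TPM in CsPYL1-5m, against 19.3, 25.7 and 19.6 TPM in WT. The log2 differences of the 4 were 3.49 ± 0.07 for AFP1, 2.15 ± 0.10 for AFP2, 3.67 ± 0.13 for AFP3 and 2.79 ± 0.16 for TMAC2. EEL and AREB3 were not called, at log2 differences of 0.16 ± 0.15 for EEL and −0.19 ± 0.07 for AREB3. ABF3, ABF1, ABF4, AFP1, AFP2, EEL and AREB3 overlap another annotated locus.

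Genes of both ABA synthesis and its breakdown were among those higher in CsPYL1-5m, with 5 of 10 tested genes called higher and 0 lower. Of 15 genes in the list 5 did not reach 1 TPM. NCED3, the enzyme that commits carotenoids to ABA synthesis in drought, had 12.6, 16.3 and 15.9 TPM in CsPYL1-5m, against 2.25, 1.06 and 1.47 TPM in WT, with a log2 difference of 2.91 ± 0.22 (SE, limma adjusted p = 0.000111). CYP707A1, an ABA 8′-hydroxylase that breaks the hormone down, was at 161, 177 and 194 TPM in CsPYL1-5m, against 36.9, 22.6 and 38.2 TPM in WT, with a log2 difference of 2.46 ± 0.20 (SE, limma adjusted p = 0.000151). CYP707A4, of the same family, had 24.0, 27.2 and 33.7 TPM in CsPYL1-5m, against 5.72, 18.5 and 7.96 TPM in WT. ABA1 and AAO3, of the early and last steps of synthesis, had log2 differences of 1.02 ± 0.08 for ABA1 and 1.04 ± 0.12 for AAO3. CYP707A2 averaged 101.6 ± 10.4 TPM in CsPYL1-5m and 52.8 ± 2.79 TPM in WT and, at a log2 difference of 0.93 ± 0.09, was not called. When 1 sample was left out, calls were lost for CYP707A4 without CsPYL1-5m replicate 3 or WT replicate 3 (1.38 to 1.39, limma adjusted p up to 0.0614), ABA1 without CsPYL1-5m replicate 2 or WT replicates 2 or 3 (0.98 to 0.999) and AAO3 without CsPYL1-5m replicate 3 or WT replicate 1 (0.93 to 0.99), with the log2 difference then in parentheses. AAO3 overlaps another annotated locus.

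In the MAP kinase cascade of ABA response, 3 of 6 tested genes were higher and 0 lower. MAPKKK18, whose promoter is used as an ABA reporter, was at 133, 144 and 148 TPM in CsPYL1-5m, against 5.33, 3.97 and 5.09 TPM in WT, with a log2 difference of 4.75 ± 0.11 (SE, limma adjusted p = 1.24e-06). Its relative MAPKKK17 had 39.5, 45.6 and 52 TPM in CsPYL1-5m, against 6.66, 3.11 and 4.79 TPM in WT. Of the kinases further down, MPK7 averaged 85.2 ± 2.5 TPM in CsPYL1-5m and 34 ± 3.79 TPM in WT and was called, at a log2 difference of 1.32 ± 0.09, and MPK2 was not, at −0.48 ± 0.11.

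Dehydrins are the LEA proteins that bind water and membranes, and 6 of 8 tested were higher in CsPYL1-5m with a median log2 difference of 2.49. ERD10 was at 3063, 3682 and 4089.7 TPM in CsPYL1-5m, against 594, 347 and 588 TPM in WT, and COR47 had 2909, 3302 and 3721 TPM in CsPYL1-5m, against 577, 491 and 625 TPM in WT. LTI30 was at 1617, 1770.3 and 1925 TPM in CsPYL1-5m, against 199.9, 159 and 203 TPM in WT. The 3 were among the most abundant transcripts that differed, with log2 differences of 2.86 ± 0.23 for ERD10, 2.55 ± 0.14 for COR47 and 3.24 ± 0.12 for LTI30. RAB18, the classical ABA-responsive dehydrin, had 526, 741 and 717 TPM in CsPYL1-5m, against 69.8, 49.2 and 65.9 TPM in WT, with a log2 difference of 3.41 ± 0.17 (SE, limma adjusted p = 2.48e-05). ERD14 averaged 1339.7 ± 118 TPM in CsPYL1-5m and 438 ± 20.2 TPM in WT, with a log2 difference of 1.61 ± 0.09. HIRD11 was abundant in both genotypes at 1179 ± 118 TPM in CsPYL1-5m and 1591 ± 316 TPM in WT, and its log2 difference of −0.42 was not called. RAB18 overlaps another annotated locus.

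Of the other LEA genes, 13 of 14 tested were higher and 0 lower, with a median of 4.32. Of the 14, 7 were tested only through their CsPYL1-5m level, and 2 of 16 genes were not tested. Beside the 4 given above, LEA4-5 was at 682, 801 and 838 TPM in CsPYL1-5m, against 23.3, 20.1 and 22.6 TPM in WT, with a log2 difference of 5.10 ± 0.10 (SE, limma adjusted p = 1.04e-06). LEA14 had 904, 1020.1 and 964 TPM in CsPYL1-5m, against 195, 191 and 237 TPM in WT, with a log2 difference of 2.22 ± 0.10 (SE, limma adjusted p = 1.74e-05). SAG21, a LEA protein sent to mitochondria, was the exception at 892 ± 56.4 TPM in CsPYL1-5m and 544 ± 178 TPM in WT, and its log2 difference of 0.76 was not called. An ABRE match was found upstream of 11 of the 14. SAG21 overlaps another annotated locus.

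Cold and drought marker genes were higher in 11 of 13 cases and lower in 0, with a median of 2.24. COR413-PM1, a membrane protein of cold response, was the most abundant and was at 4263, 4888 and 5025 TPM in CsPYL1-5m, against 1504, 1018 and 1384 TPM in WT. KIN2 had 2478, 2833 and 2786 TPM in CsPYL1-5m, against 857, 319 and 672 TPM in WT, and RD29A was at 2652, 3157 and 3329 TPM in CsPYL1-5m, against 600.4, 294 and 600.2 TPM in WT. The log2 differences of the 3 were 1.88 ± 0.17 for COR413-PM1, 2.24 ± 0.33 for KIN2 and 2.68 ± 0.28 for RD29A. COR15A, which protects chloroplast membranes in cold, had 1356, 1587 and 1492 TPM in CsPYL1-5m, against 171, 15.1 and 121 TPM in WT, with a log2 difference of 4.42 ± 0.81 (SE, limma adjusted p = 0.00411). KIN1, a neighbor of KIN2 with a similar sequence, was at 1150.2, 1510.4 and 1597 TPM in CsPYL1-5m, against 130.2, 44.9 and 121.5 TPM in WT. In COR15A, KIN1, KIN2 and RD29A the lowest sample was WT replicate 2. ERD4 averaged 472 ± 29 TPM in CsPYL1-5m and 319.6 ± 57.6 TPM in WT and was not called. An ABRE match in these windows was found for 1 of the 13 and a drought-responsive element for 6. Without WT replicate 1, the log2 difference was 5.08 for COR15A. Without WT replicate 2, the log2 difference was 3.35 for COR15A.

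HVA22 proteins act in membrane traffic, and 2 of 9 tested were higher and 0 lower, beside 6.3% and 4.49% of all tested genes. HVA22D averaged 502 ± 27.9 TPM in CsPYL1-5m and 116 ± 19.5 TPM in WT, with a log2 difference of 2.12 ± 0.13, and HVA22B averaged 22.1 ± 3.80 TPM in CsPYL1-5m and 1.88 ± 0.568 TPM in WT, at 3.26 ± 0.21 on the log2 scale. HVA22A was not called. Among oleosins and caleosins, proteins of oil bodies, 1 of 3 tested genes was higher. This was RD20, a caleosin of drought response, which had 969, 1103 and 1222 TPM in CsPYL1-5m, against 62.9, 94.1 and 117 TPM in WT, with a log2 difference of 3.62 ± 0.22 (SE, limma adjusted p = 4.64e-05). RD20 is also counted among the cold and drought markers above. CLO4 was not called, at a log2 difference of −0.44 ± 0.09. Of the 7 genes in that list, 4 did not reach 1 TPM.

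**Figure D4:**
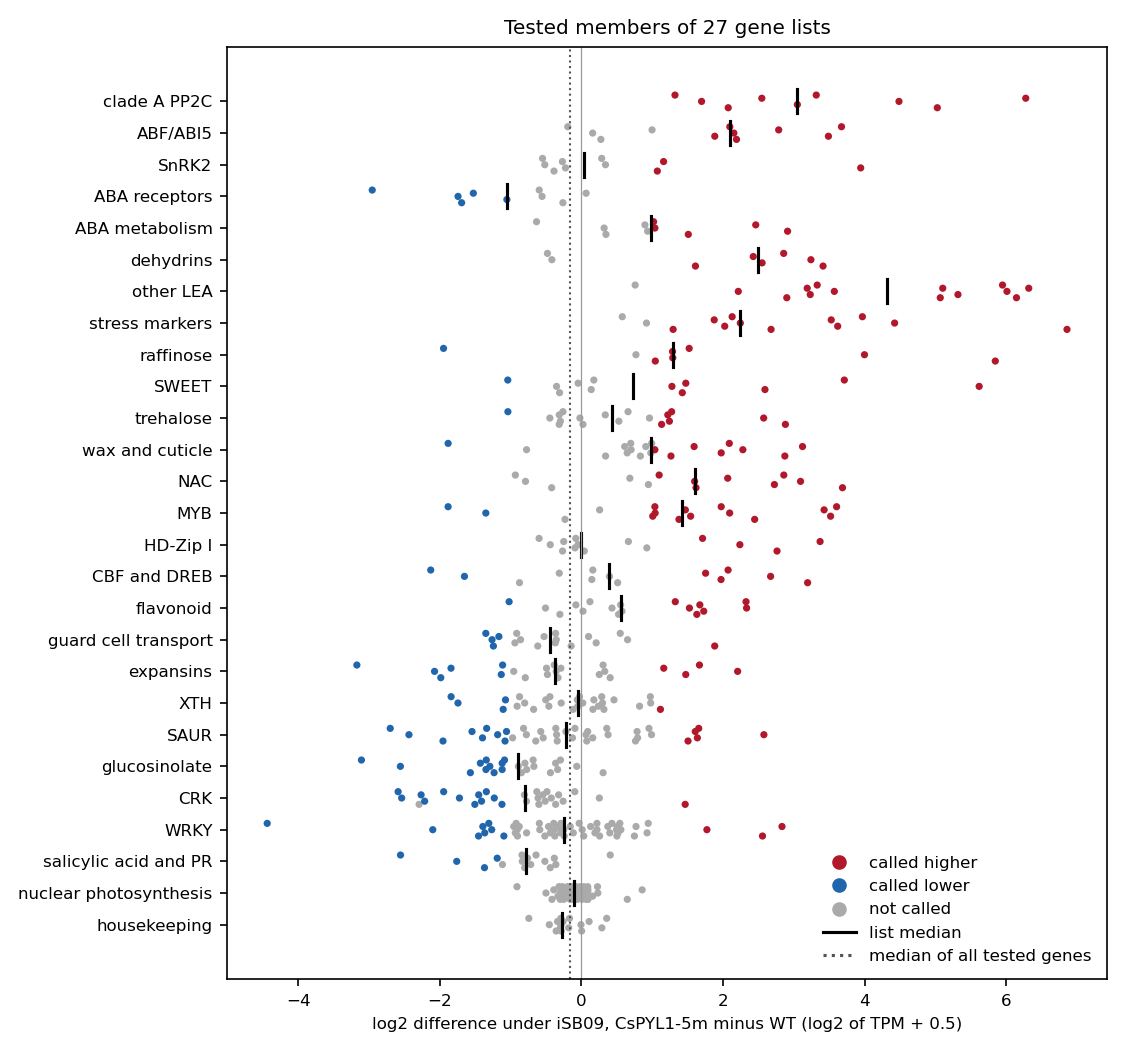
Log2 difference under iSB09 (CsPYL1-5m minus WT, of TPM + 0.5) of each tested member of 27 gene lists, colored by whether it was called higher (red), called lower (blue) or not called (gray), with a bar at each list median and a dotted line at the median of all tested genes (−0.17). All 9 clade A PP2C genes lie to the right, from 1.32 to 6.28, and 5 of 9 ABA receptors, 11 of 23 glucosinolate genes and 12 of 28 CRK genes are called lower. Under median-ratio scaling these lower counts are 4, 8 and 11.

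Genes of compatible solutes, which cells gather as they dry, had calls in the proline, raffinose and trehalose lists. P5CS1, the committing enzyme of proline synthesis, was at 733, 855 and 879 TPM in CsPYL1-5m, against 114, 174 and 143 TPM in WT, with a log2 difference of 2.53 ± 0.16 (SE, limma adjusted p = 5.33e-05). P5CS2 averaged 184 ± 14.4 TPM in CsPYL1-5m and 81.6 ± 6.42 TPM in WT, with a log2 difference of 1.17 ± 0.09. PRODH, which breaks proline down, moved the other way and had 32.3, 30.7 and 38 TPM in CsPYL1-5m, against 62.8, 158 and 90.7 TPM in WT, with a log2 difference of −1.51 ± 0.30 (SE, limma adjusted p = 0.00578). In the proline list 2 of 9 genes were higher and 1 lower. P5CR was not called, at a log2 difference of −0.36 ± 0.08. P5CS1 and P5CS2 overlap another annotated locus.

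In the raffinose list 6 of 8 tested genes were higher and 1 lower, 2 of the 8 were tested only through their CsPYL1-5m level, and 4 of 12 did not reach 1 TPM. Galactinol synthases make the galactosyl donor and raffinose synthases use it, and some members named RS may instead act as alpha-galactosidases. GOLS4 was at 64.7, 71.1 and 64.0 TPM in CsPYL1-5m, against 4.31, 2.38 and 4.82 TPM in WT, with a log2 difference of 3.998 ± 0.22 (SE, limma adjusted p = 3.22e-05). RS2 had 579, 635 and 633 TPM in CsPYL1-5m, against 169, 248 and 234 TPM in WT, with a log2 difference of 1.52 ± 0.15 (SE, limma adjusted p = 0.0003). RS5, the raffinose synthase of stressed leaves, averaged 44.4 ± 2.17 TPM in CsPYL1-5m and 21.6 ± 4.43 TPM in WT, with a log2 difference of 1.04 ± 0.15 (SE, limma adjusted p = 0.00142). RS6, also known as the dark-induced DIN10, was the lower gene and was at 32.1, 26.5 and 35.6 TPM in CsPYL1-5m, against 88.2, 185 and 110.5 TPM in WT, with a log2 difference of −1.95 ± 0.26 (SE, limma adjusted p = 0.00106). With 1 sample left out, calls were lost for RS5 without WT replicate 2 (0.87), with the log2 difference then in parentheses. GOLS4 and RS6 overlap another annotated locus.

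Trehalose phosphate is a signal of sugar status, made by TPS and removed by TPP enzymes. Of 18 tested genes 6 were higher and 1 lower, and 4 were not tested. With median-ratio scaling 7 were higher and 0 lower. TPPE averaged 70.9 ± 0.670 TPM in CsPYL1-5m and 12.2 ± 4.73 TPM in WT, and TPPF averaged 24.2 ± 1.93 TPM in CsPYL1-5m and 2.86 ± 0.292 TPM in WT, with log2 differences of 2.57 ± 0.27 for TPPE and 2.88 ± 0.11 for TPPF. TPPI, TPPG and TPS11 followed at log2 differences of 1.13 ± 0.12 for TPPI, 1.27 ± 0.07 for TPPG and 1.22 ± 0.29 for TPS11. TPS7 was not called. In starch breakdown 2 of 16 genes were higher and 0 lower, beside 6.3% and 4.49% of all tested genes. BAM1, a chloroplast beta-amylase of osmotic stress in leaves, had 301, 340.5 and 345 TPM in CsPYL1-5m, against 53, 70.1 and 65.5 TPM in WT, with a log2 difference of 2.39 ± 0.11 (SE, limma adjusted p = 2e-05). AMY1 averaged 7.87 ± 0.211 TPM in CsPYL1-5m and 3.20 ± 1.68 TPM in WT, and SEX1 was not called, at a log2 difference of 0.49 ± 0.17. Leaving out 1 sample ended calls for TPS11 without WT replicate 1 (0.97), with the log2 difference then in parentheses. AMY1 overlaps another annotated locus.

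SWEET proteins let sugars out of cells, and 6 of 12 tested were higher and 1 lower, with 5 of 17 not tested and 2 tested only through their CsPYL1-5m level. With median-ratio scaling 6 were higher and 0 lower. SWEET15, also known as the senescence gene SAG29, was at 742, 841 and 847 TPM in CsPYL1-5m, against 15.8, 10.3 and 25 TPM in WT, with a log2 difference of 5.62 ± 0.28 (SE, limma adjusted p = 2.22e-05). SWEET4 had 44.4, 53.6 and 53.9 TPM in CsPYL1-5m, against 3.67, 2.84 and 3.71 TPM in WT, with a log2 difference of 3.71 ± 0.13 (SE, limma adjusted p = 4.87e-06). SWEET13 was at 14.6, 19.1 and 15.6 TPM in CsPYL1-5m, against 3.79, 0.494 and 4.58 TPM in WT, and its WT level in replicate 2 was far under those of the other 2 samples. SWEET1 and SWEET2 had log2 differences of 1.42 ± 0.17 for SWEET1 and 1.28 ± 0.10 for SWEET2. SWEET11, which loads the phloem, was not called at a log2 difference of −0.31 ± 0.07. The log2 difference without WT replicate 2 was 1.85 for SWEET13. SWEET1 overlaps another annotated locus.

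Cuticular wax limits water loss through the epidermis, and 8 of 19 genes of the wax list were higher in CsPYL1-5m and 1 lower, with a median of 0.98. CER1, which makes wax alkanes, had 204, 257 and 248 TPM in CsPYL1-5m, against 35.7, 56.7 and 54.6 TPM in WT, with a log2 difference of 2.28 ± 0.18 (SE, limma adjusted p = 0.000154). KCS3 was at 220.3, 266 and 294 TPM in CsPYL1-5m, against 55.1, 76.8 and 51.9 TPM in WT, and KCS1 had 148, 166 and 199 TPM in CsPYL1-5m, against 57.0, 65.7 and 47 TPM in WT. These belong to the family that lengthens fatty acids, and their log2 differences were 2.09 ± 0.17 for KCS3 and 1.59 ± 0.15 for KCS1. MYB96, an ABA-responsive regulator of wax genes, was at 86.1, 96.7 and 114 TPM in CsPYL1-5m, against 22.3, 36.7 and 18.2 TPM in WT, with a log2 difference of 1.97 ± 0.24 (SE, limma adjusted p = 0.000789). CER2 averaged 75.6 ± 9.75 TPM in CsPYL1-5m and 31.4 ± 5.75 TPM in WT, with a log2 difference of 1.26 ± 0.15. CER6 was the most abundant not called, at 716 ± 86.0 TPM in CsPYL1-5m and 441 ± 66.4 TPM in WT. With median-ratio scaling the count was 12 higher and 1 lower. Among lipid transfer proteins, secreted carriers of cuticle lipids, 2 of 7 tested were higher. LTP3 had 587, 809 and 882 TPM in CsPYL1-5m, against 138, 148 and 201 TPM in WT, and LTP4 averaged 294 ± 60.5 TPM in CsPYL1-5m and 53.1 ± 20.5 TPM in WT, whereas LTP1 was not called at a log2 difference of 0.33 ± 0.10. LTP3 and LTP4 are adjacent and similar genes. CER2 overlaps another annotated locus.

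Of 27 tested aquaporins 1 was higher, PIP1;4 of the plasma membrane, which averaged 549 ± 45.9 TPM in CsPYL1-5m and 238 ± 8.07 TPM in WT, with a log2 difference of 1.2 ± 0.08. Over all tested genes 6.3% were called higher. TIP1;2 of the vacuole was not called, at a log2 difference of −0.48 ± 0.09. In the list of guard cell transport 4 of 18 tested genes were lower and 1 higher. GORK, the channel that releases potassium in closing guard cells, was the higher one and was at 39.8, 44.1 and 48.2 TPM in CsPYL1-5m, against 12.8, 8.90 and 13.5 TPM in WT, with a log2 difference of 1.88 ± 0.16 (SE, limma adjusted p = 0.000186). MYB60, a guard cell factor that favors opening, had 3.85, 3.6 and 5.04 TPM in CsPYL1-5m, against 12.4, 10.7 and 10.9 TPM in WT, with a log2 difference of −1.35 ± 0.14 (SE, limma adjusted p = 0.000394). CHX20, BLUS1 and SLAH2 had log2 differences of −1.24 ± 0.18 for CHX20, −1.26 ± 0.11 for BLUS1 and −1.17 ± 0.16 for SLAH2. AHA2, a proton pump, averaged 279 ± 15.3 TPM in CsPYL1-5m and 534 ± 15.6 TPM in WT and was not called. The 4 guard cell markers checked summed to 29.5 to 34.8 TPM in CsPYL1-5m, against 52.2 to 56.0 TPM in WT, and 2 of the 4 were called lower, MYB60 and FAMA. The part of guard cell number in these values was not tested. In the stomatal lineage 2 of 14 genes were lower and 0 higher, with a median of −0.83 beside −0.17 over all genes. At an unadjusted p below 0.05, 13 of the 14 were lower, beside 58.1% of all tested genes that differed either way. The count was 1 to 5 lower with 1 sample left out and 5 by voom, and 3 of the 14 were tested only through their WT level. FAMA, the factor that makes guard cells, averaged 6.45 ± 0.617 TPM in CsPYL1-5m and 14.8 ± 1.0 TPM in WT, with a log2 difference of −1.14 ± 0.10, and EPF2, a peptide that limits stomatal number, averaged 2.07 ± 1.04 TPM in CsPYL1-5m and 5.13 ± 1.07 TPM in WT, at −1.19 ± 0.29 on the log2 scale. SCRM was not called. Under median-ratio scaling the call of FAMA (−0.98) was lost, at the log2 difference in parentheses. Calls ended with 1 sample left out for EPF2 without CsPYL1-5m replicates 2 or 3 (−1.09 to −0.97, limma adjusted p up to 0.0501). BLUS1 overlaps another annotated locus.

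Transcription factors of drought and senescence were often higher in CsPYL1-5m. In the NAC list 8 of 13 tested genes were higher and 0 lower, with a median of 1.60. RD26, a NAC factor of ABA and drought response, was at 331, 389 and 406 TPM in CsPYL1-5m, against 42.5, 47.9 and 39.95 TPM in WT, with a log2 difference of 3.09 ± 0.10 (SE, limma adjusted p = 4.25e-06). NAP, a driver of leaf senescence, had 93, 106 and 121.6 TPM in CsPYL1-5m, against 4.84, 12.8 and 7.52 TPM in WT, with a log2 difference of 3.69 ± 0.30 (SE, limma adjusted p = 0.000166). NAC019 was at 235, 222 and 228 TPM in CsPYL1-5m, against 24.1, 53.6 and 30.6 TPM in WT. NAC092, also a senescence factor, NAC047 and NAC019 had log2 differences of 1.62 ± 0.28 for NAC092, 1.60 ± 0.34 for NAC047 and 2.73 ± 0.26 for NAC019, and WT replicate 2 was the highest WT sample in each. NAC102 was not called, at a log2 difference of 0.95 ± 0.08. Of the 14 genes 1 was not tested. NAC102 overlaps another annotated locus.

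In the list of MYB factors 12 of 16 tested genes were higher and 2 lower, with a median of 1.42. MYB74 had 117, 124 and 140.4 TPM in CsPYL1-5m, against 11.2, 9.998 and 12.9 TPM in WT, with a log2 difference of 3.43 ± 0.11 (SE, limma adjusted p = 4.12e-06). MYB44, a repressor of clade A PP2C genes, was at 161, 181 and 189 TPM in CsPYL1-5m, against 64.6, 63.5 and 62.6 TPM in WT, with a log2 difference of 1.47 ± 0.07 (SE, limma adjusted p = 2.45e-05). MYB49 and MYB73 had log2 differences of 1.38 ± 0.14 for MYB49 and 1.04 ± 0.11 for MYB73. MYB77 was not called, at a log2 difference of 0.26 ± 0.20. Among HD-Zip class I factors 4 of 14 tested were higher and 0 lower. HB7 had 632, 708 and 760.4 TPM in CsPYL1-5m, against 86.1, 113 and 111.04 TPM in WT, and HB12 was at 276, 300.4 and 343 TPM in CsPYL1-5m, against 24.2, 36.1 and 28 TPM in WT. Both restrain growth in drought, and their log2 differences were 2.76 ± 0.12 for HB7 and 3.37 ± 0.15 for HB12. HB21 and HB40, of bud dormancy, were lower in level and had log2 differences of 2.24 ± 0.13 for HB21 and 1.71 ± 0.22 for HB40. HB6, a negative regulator of ABA response, averaged 412 ± 10.9 TPM in CsPYL1-5m and 217 ± 2.93 TPM in WT, and its log2 difference of 0.92 was not called. When 1 sample was left out, calls were lost for MYB73 without CsPYL1-5m replicate 3 or WT replicate 3 (0.93 to 0.9997), with the log2 difference then in parentheses. MYB44 and MYB73 overlap another annotated locus.

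CBF and DREB factors bind the drought-responsive element, and 5 of 13 genes of that list were higher and 2 lower, while 3 of the 13 were tested only through their CsPYL1-5m level. DREB2A had 60.8, 71.2 and 75.4 TPM in CsPYL1-5m, against 16.2, 19.8 and 15.8 TPM in WT, with a log2 difference of 1.97 ± 0.12 (SE, limma adjusted p = 4.55e-05). CBF3, of cold response, averaged 19.1 ± 1.13 TPM in CsPYL1-5m and 2.92 ± 1.74 TPM in WT, while CBF2 averaged 7.03 ± 1.36 TPM in CsPYL1-5m and 1.74 ± 0.467 TPM in WT, with log2 differences of 2.67 ± 0.39 for CBF3 and 1.75 ± 0.20 for CBF2. The lower genes were RAV1 and TEM2, a related pair of which TEM2 delays flowering. TEM2 was at 16.9, 14.9 and 20.7 TPM in CsPYL1-5m, against 78.6, 82.9 and 71.5 TPM in WT, with a log2 difference of −2.13 ± 0.12 (SE, limma adjusted p = 4.17e-05), and RAV1 had a log2 difference of −1.65 ± 0.15. RAP2.4 was not called. Of NF-YA subunits 4 of 10 were higher and 0 lower, and 1 of the 10 was tested only through its CsPYL1-5m level. NF-YA1 averaged 72.3 ± 3.08 TPM in CsPYL1-5m and 23.1 ± 1.05 TPM in WT, and NF-YA5, of stomatal response to drought, averaged 9.79 ± 2.43 TPM in CsPYL1-5m and 0.891 ± 0.593 TPM in WT. Their log2 differences were 1.63 ± 0.07 for NF-YA1 and 2.96 ± 0.35 for NF-YA5. NF-YA4 and NF-YA7 had log2 differences of 1.13 ± 0.07 for NF-YA4 and 1.44 ± 0.14 for NF-YA7, and NF-YA9 was not called. DREB2A, CBF3 and NF-YA5 overlap another annotated locus.

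Of 18 tested heat shock factors 4 were higher and 1 lower, and 2 of the 18 were tested only through their CsPYL1-5m level. HSFA6B, a factor that links ABA to heat response, had 352, 408 and 442 TPM in CsPYL1-5m, against 30.7, 25.9 and 31.9 TPM in WT, with a log2 difference of 3.74 ± 0.11 (SE, limma adjusted p = 3.11e-06). HSFA6A, a related factor, was listed at 7.56, 10.6 and 12.9 TPM in CsPYL1-5m, against 0, 0.223 and 0.0743 TPM in WT. The WT values of HSFA6A rest on 0 to 3 reads. HSFB2A and HSFA1E had log2 differences of 2.03 ± 0.15 for HSFB2A and 1.26 ± 0.11 for HSFA1E, and the lower gene HSFA3 had −1.02 ± 0.13. HSF4 was not called. Heat shock proteins, the chaperones these factors control, were higher in 3 of 21 tested genes and lower in 0. HSP70 averaged 169 ± 28.4 TPM in CsPYL1-5m and 71.2 ± 31.9 TPM in WT. HSP22.0 averaged 25.2 ± 1.46 TPM in CsPYL1-5m and 1.14 ± 0.875 TPM in WT, and HSP17.6A averaged 10.2 ± 3.54 TPM in CsPYL1-5m and 3.25 ± 0.550 TPM in WT. HSC70-1 was the most abundant not called, at a log2 difference of −0.65 ± 0.09. Lost under median-ratio scaling was the call of HSFA3 (−0.88), at the log2 difference in parentheses. With 1 sample left out, calls were lost for HSFA3 without CsPYL1-5m replicates 2 or 3 or WT replicate 3 (−0.99 to −0.97) and HSP70 without CsPYL1-5m replicates 2 or 3 or WT replicate 2 (0.91 to 1.34, limma adjusted p up to 0.069). HSFA3 overlaps another annotated locus.

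Growth genes had calls in both directions, beside 6.3% of all tested genes called higher and 4.49% called lower. Expansins loosen cell walls as cells enlarge, and 6 of 22 tested were lower and 4 higher, with 4 and 4 under median-ratio scaling. EXPA1 was at 15, 12.8 and 14.4 TPM in CsPYL1-5m, against 46.1, 86.8 and 46.5 TPM in WT, with a log2 difference of −1.99 ± 0.24 (SE, limma adjusted p = 0.000694). EXPB3 had 12.7, 11.4 and 8.77 TPM in CsPYL1-5m, against 65.8, 27.8 and 57.4 TPM in WT, with a log2 difference of −2.07 ± 0.31 (SE, limma adjusted p = 0.00182). The 4 higher genes were all of the expansin-like branches, EXLA1, EXLA2, EXLA3 and EXLB1. EXLA1 averaged 193 ± 14.4 TPM in CsPYL1-5m and 60.4 ± 2.32 TPM in WT, and EXLB1 averaged 117 ± 11 TPM in CsPYL1-5m and 25.3 ± 5.68 TPM in WT, with log2 differences of 1.67 ± 0.07 for EXLA1 and 2.21 ± 0.17 for EXLB1. EXLA2 had a log2 difference of 1.47 ± 0.15, and EXPA16 was not called. Of 28 tested XTH genes, whose products cut and join xyloglucan, 4 were lower and 1 higher, a balance that turned to 2 and 3 with median-ratio scaling. XTH31 was at 57.4, 46.9 and 42.1 TPM in CsPYL1-5m, against 196, 123 and 221 TPM in WT, with a log2 difference of −1.84 ± 0.22 (SE, limma adjusted p = 0.000742). XTH20, XTH6 and XTH15 had log2 differences of −1.74 ± 0.41 for XTH20, −1.11 ± 0.19 for XTH6 and −1.07 ± 0.13 for XTH15, and XTH22 was higher at 1.12 ± 0.12. XTH24 was not called. Of 9 tested cellulose synthases 1 was higher, CESA10, at 1.66 ± 0.483 TPM in CsPYL1-5m and 0.145 ± 0.121 TPM in WT, and CESA1 was not called. Median-ratio scaling ended the calls of XTH6 (−0.94) and XTH15 (−0.90), at the log2 differences in parentheses. Leaving out 1 sample ended calls for XTH6 without CsPYL1-5m replicate 2 or WT replicate 1 (−0.96 to −0.93), XTH15 without WT replicate 2 (−0.97) and XTH22 without CsPYL1-5m replicate 3 (0.998). EXLA1, XTH15 and CESA10 overlap another annotated locus.

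Auxin is the main hormone of cell elongation. Of 37 tested SAUR genes, which act in elongation, 9 were lower and 5 higher, and 42 of 79 were not tested. Of the 37, 5 were tested only through their CsPYL1-5m level and 6 only through their WT level, and with 1 sample left out 7 to 13 were lower. Under median-ratio scaling the counts were 7 and 7. SAUR6 averaged 14.7 ± 3.03 TPM in CsPYL1-5m and 43.3 ± 3.98 TPM in WT. SAUR14 averaged 10.2 ± 2.0 TPM in CsPYL1-5m and 26.2 ± 1.34 TPM in WT, and SAUR50 averaged 7.60 ± 1.48 TPM in CsPYL1-5m and 18 ± 4.16 TPM in WT. The log2 differences of these 3 were −1.55 ± 0.14 for SAUR6, −1.34 ± 0.14 for SAUR14 and −1.18 ± 0.20 for SAUR50. SAUR30 and SAUR72 were higher, at log2 differences of 1.64 ± 0.15 for SAUR30 and 1.61 ± 0.10 for SAUR72, and SAUR78 was not called. In the Aux/IAA and GH3 list 3 of 29 tested genes were higher and 2 lower, beside 6.3% and 4.49% of all tested genes. GH3.6, an enzyme that conjugates auxin to amino acids, had 182, 187 and 214 TPM in CsPYL1-5m, against 36.3, 47.6 and 42.6 TPM in WT, with a log2 difference of 2.2 ± 0.11 (SE, limma adjusted p = 2.49e-05). GH3.5 and IAA30 had log2 differences of 1.42 ± 0.19 for GH3.5 and 1.41 ± 0.24 for IAA30. GH3.9 and IAA27 were lower, at log2 differences of −1.46 ± 0.19 for GH3.9 and −1.25 ± 0.17 for IAA27, and IAA9 was not called. Of 11 tested auxin carriers 2 were lower, AUX1 and LAX1, which import auxin, at log2 differences of −1.1 ± 0.14 for AUX1 and −1.16 ± 0.09 for LAX1. PIN7 was not called, at a log2 difference of −0.84 ± 0.22. Under median-ratio scaling the calls of AUX1 (−0.93) and LAX1 (−0.99) were lost, at the log2 differences in parentheses. SAUR6, GH3.9 and IAA27 overlap another annotated locus.

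Other growth hormones had 1 or 2 calls per list, where 6.3% of all tested genes were called higher and 4.49% lower. Of 16 tested gibberellin genes 1 was higher, GA2OX6, an enzyme that inactivates gibberellin, which was at 44.7, 54.8 and 57.7 TPM in CsPYL1-5m, against 7.51, 6.57 and 5.78 TPM in WT, with a log2 difference of 2.89 ± 0.13 (SE, limma adjusted p = 1.45e-05). GID1B was not called. Of 12 tested brassinosteroid genes 2 were lower, CPD of synthesis and the receptor inhibitor BKI1, at log2 differences of −1.04 ± 0.12 for CPD and −1.09 ± 0.12 for BKI1. BES1 was not called. The brassinosteroid median was −0.38 beside −0.17 over all genes. At an unadjusted p below 0.05, 10 of the 12 were lower, beside 58.1% of all tested genes that differed either way. Of 8 tested type-A response regulators of cytokinin 1 was higher, ARR16, at a log2 difference of 1.01 ± 0.26, and ARR4 was not called. In the cell cycle list 1 of 41 tested genes was higher, CYCD4;2, and 2 were lower, CYCD3;1 and KRP6. Their log2 differences were 1.02 ± 0.23 for CYCD4;2, −1.08 ± 0.13 for CYCD3;1 and −1.14 ± 0.13 for KRP6. CDKA1 was not called, at a log2 difference of −0.30 ± 0.07. Lost under median-ratio scaling were the calls of CPD (−0.87), BKI1 (−0.93), CYCD3;1 (−0.92) and KRP6 (−0.98), at the log2 differences in parentheses. Calls ended with 1 sample left out for CPD without WT replicate 2 (−0.90), BKI1 without CsPYL1-5m replicate 2 (−0.98), ARR16 without CsPYL1-5m replicates 1 or 3 or WT replicate 1 (0.71 to 1.02, limma adjusted p up to 0.0526), CYCD4;2 without CsPYL1-5m replicate 1 or WT replicates 1 or 2 (0.87 to 0.94) and CYCD3;1 without CsPYL1-5m replicate 2 or WT replicate 1 (−0.996 to −0.99). CPD and CYCD3;1 overlap another annotated locus.

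Glucosinolates are the sulfur compounds of crucifer defense, and their list included genes of aliphatic and indolic synthesis and of breakdown. Of the 23 genes 11 were lower and 0 higher. The median log2 difference was −0.89. CYP83A1, of the aliphatic branch, had 81.9, 72.1 and 78.2 TPM in CsPYL1-5m, against 233, 149 and 198 TPM in WT, with a log2 difference of −1.29 ± 0.16 (SE, limma adjusted p = 0.000726). CYP83B1, of the indolic branch, was at 159.6, 149 and 199 TPM in CsPYL1-5m, against 389, 521 and 388 TPM in WT, with a log2 difference of −1.35 ± 0.15 (SE, limma adjusted p = 0.000557). ESM1, which steers the breakdown of glucosinolates to isothiocyanates, had 746, 768 and 660.4 TPM in CsPYL1-5m, against 1598, 2389 and 1933 TPM in WT, with a log2 difference of −1.43 ± 0.16 (SE, limma adjusted p = 0.000497). BCAT4 and CYP79B2 had log2 differences of −1.12 ± 0.14 for BCAT4 and −1.12 ± 0.19 for CYP79B2. TGG1, a myrosinase, averaged 1046 ± 150.4 TPM in CsPYL1-5m and 1417 ± 201 TPM in WT, and its log2 difference of −0.44 was not called. With median-ratio scaling 8 of 23 were lower, and without WT replicate 2 the count was 11. That replicate was the lowest WT sample in 9 of the 11, beside 33.8% of all genes called lower. An ABRE match was found in 0 of the 23 windows. Median-ratio scaling ended the calls of BCAT4 (−0.95) and CYP79B2 (−0.95), at the log2 differences in parentheses. When 1 sample was left out, calls were lost for BCAT4 without WT replicate 1 (−0.96) and CYP79B2 without CsPYL1-5m replicate 2 (−0.95). BCAT4 overlaps another annotated locus.

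Receptor-like kinases of the CRK family, many of them induced in defense, were lower in 12 of 28 tested genes and higher in 1, with a median of −0.79. CRK22 was at 7.31, 5.59 and 6.99 TPM in CsPYL1-5m, against 26.1, 81.7 and 31.5 TPM in WT, with a log2 difference of −2.54 ± 0.39 (SE, limma adjusted p = 0.002). CRK9 had 9.90, 10.8 and 14.2 TPM in CsPYL1-5m, against 24.5, 75.7 and 32.2 TPM in WT, with a log2 difference of −1.72 ± 0.39 (SE, limma adjusted p = 0.00919). CRK18, CRK19 and CRK21 had log2 differences of −1.34 ± 0.24 for CRK18, −1.23 ± 0.13 for CRK19 and −1.51 ± 0.27 for CRK21, and CRK10 was not called, at −0.43 ± 0.10. WT replicate 2 was the highest WT sample in 11 of the 12 lower genes, beside 55.8% of all genes called lower and 34.8% of all tested genes. Without that replicate 12 CRK genes were again lower and 1 higher, and with median-ratio scaling 11 and 1. Of the 42 genes, 14 did not reach 1 TPM. Of the 28, 3 were tested only through their WT level and 1 only through its CsPYL1-5m level. CRK19 and CRK10 overlap another annotated locus.

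WRKY factors, which act in defense and senescence, were lower in 8 of 54 tested genes and higher in 3. Under median-ratio scaling 7 were lower and 5 higher. WRKY47 was at 6.36, 5.81 and 6.35 TPM in CsPYL1-5m, against 18.1, 47.1 and 25.9 TPM in WT, with a log2 difference of −2.1 ± 0.31 (SE, limma adjusted p = 0.00155). WRKY70, a factor of salicylic acid response, had 6.71, 8.17 and 9.04 TPM in CsPYL1-5m, against 13.4, 38.7 and 19.3 TPM in WT, with a log2 difference of −1.39 ± 0.35 (SE, limma adjusted p = 0.014). WRKY27 and WRKY22 had log2 differences of −1.37 ± 0.14 for WRKY27 and −1.31 ± 0.29 for WRKY22. WRKY11 was the most abundant not called, at a log2 difference of 0.54 ± 0.13. WT replicate 2 was the highest WT sample in 7 of the 8 lower genes, and without it 5 were lower and 4 higher. With each sample left out in turn 5 to 11 were lower. Of the 54, 4 were tested only through their WT level and 3 only through their CsPYL1-5m level. Of 16 tested genes of salicylic acid and pathogenesis-related proteins 4 were lower and 0 higher. PR1, the standard marker of salicylic acid defense, was at 1.2, 3.25 and 1.43 TPM in CsPYL1-5m, against 12.2, 12.8 and 14.3 TPM in WT, with a log2 difference of −2.56 ± 0.29 (SE, limma adjusted p = 0.00054). CBP60G, PR2 and FMO1 had log2 differences of −1.76 ± 0.59 for CBP60G, −1.37 ± 0.45 for PR2 and −1.19 ± 0.41 for FMO1. PR4 was not called, at a log2 difference of −0.72 ± 0.29. With median-ratio scaling 1 of the 16 was lower, and without WT replicate 2 it was 3. With each sample left out in turn 1 to 7 were lower. A fit blocked by replicate number gave 2 lower genes, and the calls of PR2 (limma adjusted p = 0.0599) and CBP60G (limma adjusted p = 0.0546) were lost. Under median-ratio scaling the calls of CBP60G (−1.63, limma adjusted p = 0.0626), PR2 (−1.23, limma adjusted p = 0.0643) and FMO1 (−1.05, limma adjusted p = 0.0789) were lost, at the log2 differences in parentheses. With 1 sample left out, calls were lost for WRKY70 without CsPYL1-5m replicate 1 or WT replicate 2 (−1.28 to −0.98, limma adjusted p up to 0.0521), WRKY22 without WT replicate 2 (−0.97), CBP60G without CsPYL1-5m replicates 1, 2 or 3 or WT replicate 3 (−2.01 to −1.57, limma adjusted p up to 0.127), PR2 without CsPYL1-5m replicates 1 or 2 or WT replicate 2 (−1.25 to −0.88, limma adjusted p up to 0.117) and FMO1 without CsPYL1-5m replicates 1, 2 or 3 or WT replicates 2 or 3 (−1.29 to −0.70, limma adjusted p up to 0.117). Without WT replicate 2, the log2 difference was −1.06 for CBP60G.

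**Figure D5:**
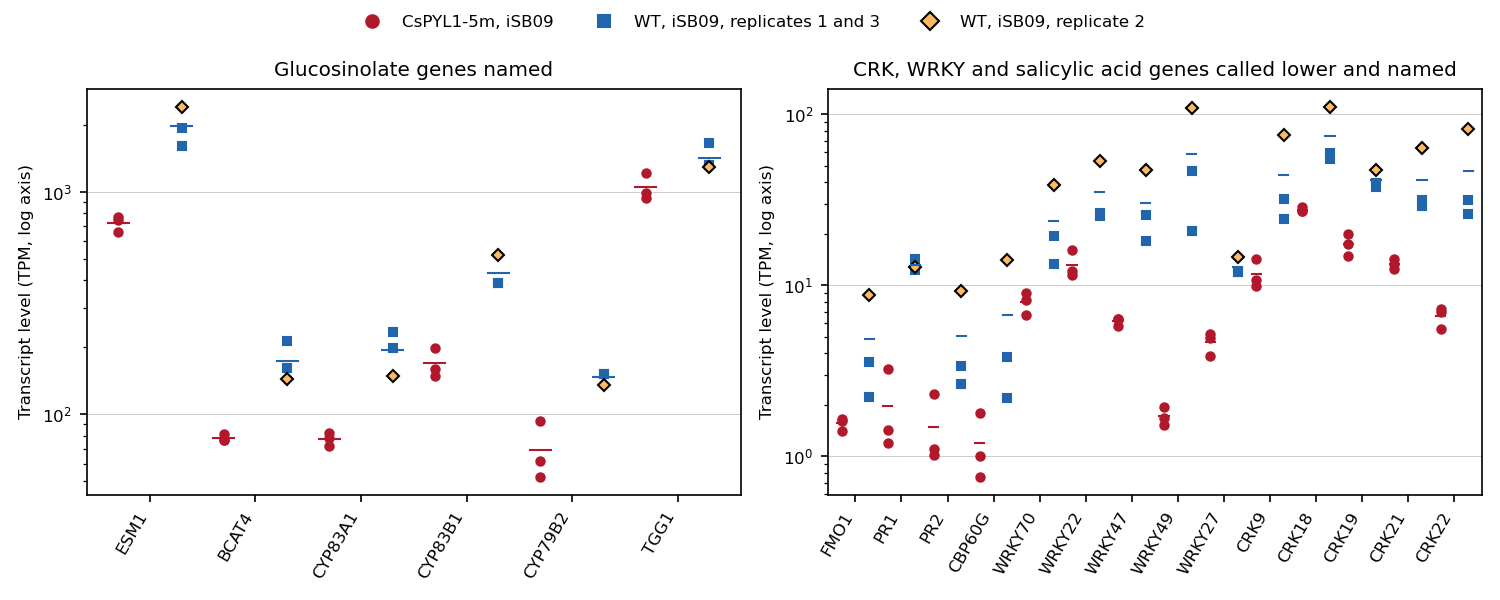
Transcript levels (TPM, log axis) under iSB09 of the glucosinolate genes named in the text (left) and of named salicylic acid, WRKY and CRK genes called lower (right), for each CsPYL1-5m sample (circles), WT replicates 1 and 3 (squares) and WT replicate 2 (diamonds), with bars at the group means. Replicate 2 is the highest WT sample for most genes on the right, as for CRK22 with 81.7 TPM beside 26.1 and 31.5 TPM, and every CsPYL1-5m sample lies below the WT samples of its gene.

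Jasmonate is the hormone of wounding and insect defense. In its list 4 of 27 tested genes were lower and 1 higher, and with median-ratio scaling this turned to 1 lower and 4 higher. Over all tested genes 4.49% were called lower and 6.3% higher in the main fit. LOX2, an early enzyme of jasmonate synthesis, had 192, 128 and 286 TPM in CsPYL1-5m, against 375, 1151 and 559 TPM in WT, with a log2 difference of −1.7 ± 0.44 (SE, limma adjusted p = 0.0159). JAZ6, JAZ10 and AOC1 had log2 differences of −1.07 ± 0.08 for JAZ6, −1.07 ± 0.26 for JAZ10 and −1.01 ± 0.24 for AOC1. VSP2, a storage protein induced by jasmonate, was higher and was at 143, 110.2 and 219 TPM in CsPYL1-5m, against 65.0, 65.9 and 70.3 TPM in WT, with a log2 difference of 1.17 ± 0.22 (SE, limma adjusted p = 0.00496). AOC2 was not called. Of 22 tested ethylene genes 2 were higher and 1 lower. ACS2 and ACS7 encode synthases of the ethylene precursor and had log2 differences of 2.49 ± 0.27 for ACS2 and 1.55 ± 0.49 for ACS7. ACS10 was lower, at a log2 difference of −1.07 ± 0.10. Lost under median-ratio scaling were the calls of JAZ6 (−0.90), JAZ10 (−0.93), AOC1 (−0.83) and ACS10 (−0.90), at the log2 differences in parentheses. Leaving out 1 sample ended calls for LOX2 without CsPYL1-5m replicate 2 (−1.41, limma adjusted p up to 0.0608), JAZ10 without CsPYL1-5m replicates 1 or 2 or WT replicate 3 (−0.98 to −0.83, limma adjusted p up to 0.0519), AOC1 without CsPYL1-5m replicates 1 or 2 or WT replicates 1 or 3 (−0.98 to −0.77), VSP2 without CsPYL1-5m replicate 3 (0.90), ACS7 without CsPYL1-5m replicates 1, 2 or 3 or WT replicates 1 or 3 (1.13 to 1.65, limma adjusted p up to 0.112) and ACS10 without CsPYL1-5m replicate 2 (−0.97). Without WT replicate 2, the log2 difference was 2.17 for ACS7. JAZ10 and ACS10 overlap another annotated locus.

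Detoxifying glutathione transferases had 5 of 33 tested genes higher and 3 lower, and 5 and 0 with median-ratio scaling. GSTU17 had 212, 249 and 221 TPM in CsPYL1-5m, against 62.0, 82.0 and 59.5 TPM in WT, and GSTU9 averaged 134 ± 13.8 TPM in CsPYL1-5m and 20.01 ± 1.93 TPM in WT. Their log2 differences were 1.75 ± 0.13 for GSTU17 and 2.72 ± 0.10 for GSTU9, and GSTU5 had 1.04 ± 0.11. GSTF7 was at 40.3, 61.6 and 56.8 TPM in CsPYL1-5m, against 83.1, 439 and 128 TPM in WT, with a log2 difference of −1.68 ± 0.56 (SE, limma adjusted p = 0.0406). GSTU27 had a log2 difference of −1.04 ± 0.12, and GSTF9 was not called. Among NADPH oxidases and antioxidant enzymes 3 of 28 tested genes were lower and 2 higher, beside 4.49% and 6.3% of all tested genes. RBOHD, the oxidase of the immune oxidative burst, had 13.4, 12.7 and 15 TPM in CsPYL1-5m, against 37.8, 38.5 and 47.1 TPM in WT, with a log2 difference of −1.55 ± 0.11 (SE, limma adjusted p = 8.55e-05). RBOHB had a log2 difference of −1.47 ± 0.19. CAT3, a catalase, was at 1546, 1581 and 2217 TPM in CsPYL1-5m, against 3278, 4228 and 3867 TPM in WT, with a log2 difference of −1.1 ± 0.18 (SE, limma adjusted p = 0.00238). APX2, a stress-induced ascorbate peroxidase, had 9.998, 8.19 and 7.07 TPM in CsPYL1-5m, against 0.218, 0.0734 and 0.294 TPM in WT, on 1 to 4 reads in each WT sample. GPX2 had a log2 difference of 1.18 ± 0.12, and FSD1 was not called. Median-ratio scaling ended the calls of GSTF7 (−1.5, limma adjusted p = 0.0701), GSTU27 (−0.87) and CAT3 (−0.93), at the log2 differences in parentheses. Calls ended with 1 sample left out for GSTU5 without CsPYL1-5m replicate 3 or WT replicate 1 (0.96 to 0.98), GSTF7 without CsPYL1-5m replicates 1, 2 or 3 or WT replicates 2 or 3 (−1.87 to −0.98, limma adjusted p up to 0.121) and GSTU27 without CsPYL1-5m replicate 2 or WT replicate 2 (−0.97 to −0.95). The log2 difference without WT replicate 2 was −0.98 for GSTF7. GSTU17, RBOHB and GPX2 overlap another annotated locus.

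Nitrate genes were lower in 3 of 13 tested cases and higher in 2, and 4 of 17 did not reach 1 TPM. Over all tested genes the shares were 4.49% lower and 6.3% higher. NRT2.1, the high-affinity uptake carrier of roots, was at 2.15, 1.34 and 0.764 TPM in CsPYL1-5m, against 12.8, 4.68 and 15.1 TPM in WT, with a log2 difference of −2.48 ± 0.45 (SE, limma adjusted p = 0.00382). NIA2, the main nitrate reductase, had 435, 435 and 374 TPM in CsPYL1-5m, against 861, 1134 and 748 TPM in WT, with a log2 difference of −1.12 ± 0.16 (SE, limma adjusted p = 0.00131). NRT1.2, which also carries ABA, averaged 35.5 ± 1.90 TPM in CsPYL1-5m and 86.3 ± 17.3 TPM in WT, with a log2 difference of −1.25 ± 0.14. NRT1.8, which retrieves nitrate from xylem, and NPF6.2 were higher, at log2 differences of 1.81 ± 0.43 for NRT1.8 and 1.25 ± 0.10 for NPF6.2. GLN2 was not called. In the flavonoid list 7 of 17 tested genes were higher and 1 lower, and 6 of the 17 were tested only through their CsPYL1-5m level. With median-ratio scaling 7 were higher and 0 lower. PAP1, the MYB factor of anthocyanin synthesis, was at 14.9, 11.5 and 27 TPM in CsPYL1-5m, against 4.97, 0.989 and 4.46 TPM in WT, with a log2 difference of 2.32 ± 0.53 (SE, limma adjusted p = 0.00998). DFR, a late enzyme of the pathway, averaged 18.6 ± 3.98 TPM in CsPYL1-5m and 5.70 ± 2.74 TPM in WT, and LDOX, which acts after it, averaged 15.3 ± 1.95 TPM in CsPYL1-5m and 4.82 ± 1.8 TPM in WT, with log2 differences of 1.73 ± 0.37 for DFR and 1.63 ± 0.26 for LDOX. UGT75C1 and UF3GT, which add sugars to anthocyanins, had log2 differences of 1.33 ± 0.26 for UGT75C1 and 1.67 ± 0.27 for UF3GT. TT4, the first enzyme of the pathway, was not called. Under median-ratio scaling the call of NIA2 (−0.95) was lost, at the log2 difference in parentheses. When 1 sample was left out, calls were lost for NIA2 without WT replicate 2 (−0.96). Without WT replicate 2, the log2 difference was 1.72 for PAP1. NRT1.8, NPF6.2 and UGT75C1 overlap another annotated locus.

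Photosynthesis, housekeeping and root genes had no calls in the main fit. Over all tested genes 58.1% had an unadjusted p below 0.05, the share beside which the counts here stand. Of 49 tested nuclear genes of light harvesting, photosystems and carbon fixation, 0 were called by limma, and 0 by voom on recovered reads. With median-ratio scaling 1 was called higher. With 1 sample left out, up to 1 was called higher and up to 1 lower. At an unadjusted p below 0.05 there were 2 genes on the higher and 3 on the lower side. CAB1 averaged 12109 ± 144 TPM in CsPYL1-5m and 13371 ± 2939 TPM in WT, and the list median was −0.11 beside −0.17 over all genes. Of 16 housekeeping genes 0 were called by limma and 0 by voom, with 2 genes on the higher and 11 on the lower side at an unadjusted p below 0.05 and a median of −0.27. GAPC2 had the highest level of these and had 1206, 1192 and 1086 TPM in CsPYL1-5m, against 1876, 2055 and 1899 TPM in WT. Of 9 root markers 0 were called by limma and 0 by voom, with 2 genes on the higher and 2 on the lower side at an unadjusted p below 0.05, and PYK10, a root glucosidase, averaged 3408 ± 172 TPM in CsPYL1-5m and 3186 ± 280.0 TPM in WT. Up to 1 root marker was called lower with 1 sample left out. The root markers SCR and SHR, named here after their values were seen, were lower without reaching the size of a call. SCR, a factor of the endodermis, was at 15.9, 16.9 and 17.3 TPM in CsPYL1-5m, against 27.9, 38.3 and 32.8 TPM in WT, with no overlap and a log2 difference of −0.95 (limma adjusted p = 0.000773). Such a lack of overlap, with every CsPYL1-5m sample below every WT sample, was found for 42.7% of all tested genes. SHR, which acts with SCR, had a log2 difference of −0.69 (limma adjusted p = 0.00438). In the clock list 1 of 14 genes was called, CCA1, a morning factor, which was at 16.4, 19.4 and 19 TPM in CsPYL1-5m, against 5.44, 9.25 and 3.79 TPM in WT, with a log2 difference of 1.57 ± 0.27 (SE, limma adjusted p = 0.00331). ELF4, an evening gene, was not called, at a log2 difference of 0.52 ± 0.07. CAB1 and PYK10 overlap another annotated locus.

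Plastid-encoded genes and 1 seed gene differed between the genotypes also without iSB09. Of 98 tested plastid genes 11 were higher and 0 lower under iSB09, and 8 of the 98 were called higher in mock samples. ATCG01020 had 5080.4, 3993 and 3907 TPM in CsPYL1-5m, against 1597, 1936 and 1775 TPM in WT, and its mock means were 4097 TPM in CsPYL1-5m and 1716 TPM in WT. ATCG00470 was at 1337, 1206 and 1157 TPM in CsPYL1-5m, against 476, 573 and 458 TPM in WT, and its mock means were 1389 TPM in CsPYL1-5m and 525 TPM in WT. ATCG00270 averaged 409.5 ± 49.8 TPM in CsPYL1-5m and 149 ± 12.5 TPM in WT, with mock means of 446 TPM in CsPYL1-5m and 147 TPM in WT. ATCG00280 and ATCG00290 had log2 differences of 1.26 ± 0.11 for ATCG00280 and 1.02 ± 0.21 for ATCG00290, and ATCG00220 was not called. SESA3, a seed storage albumin gene also known as At2S3, was listed at 2.67, 3.23 and 4.11 TPM in iSB09-treated CsPYL1-5m and at 0 in all 6 WT samples. In mock CsPYL1-5m it averaged 5.59 TPM, and of the 8 seed storage genes it alone reached 1 TPM in all 3 samples of a group. The study's construct was carried in a pAlligator2 vector, whose selection marker is driven by a seed storage promoter, and a part of the vector in these reads was not tested. With 1 sample left out, calls were lost for ATCG00290 without CsPYL1-5m replicates 1 or 2 or WT replicates 1 or 3 (0.84 to 0.996), with the log2 difference then in parentheses.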

How the data were processed

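RNA sequencing of whole Arabidopsis seedlings was analysed in 12 samples, 3 for each of iSB09-treated CsPYL1-5m, iSB09-treated WT and the 2 mock groups. According to the study's methods, the authors trimmed paired reads, aligned them with HISAT2 to TAIR10, discarded pairs that did not align uniquely and counted the rest per Araport11 gene with HTSeq-count. The authors deposited TPM values, that is, counts scaled by exon length and then to a fixed sum per sample. The authors also deposited RPKM values, scaled by depth and exon length. The deposited tables are named as unstranded counts, so genes that overlap another locus, named as such in the text, can share reads. Columns of other kinds were not used.

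The table held 37336 genes, of which 37051 IDs matched the TAIR10.1 annotation of RefSeq and 285 organelle IDs did not. RPKM times merged exon length gave whole reads (within 0.02) in all samples for 72.3% of genes with values, and the depths and voom fits rest on these. Depths and read floors cover counting error only.

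Genes with at least 1 TPM in all 3 samples of either treated group were tested on log2(TPM + 0.5) in the 6 treated samples by limma 3.58.1 under R 4.3.3, letting the prior variance follow the mean level. P-values were adjusted by Benjamini-Hochberg over all genes tested, and a call needed an adjusted p under 0.05 and a log2 difference above 1 in size. The study describes the replicates as independent experiments. The comparison, the gene lists and the displayed members were chosen with earlier results of these data known. Lists were matched by symbol, and 27 loci whose symbol fitted but whose product did not were left out. Some genes belong to more than 1 list and are counted in each. Genes named in the text were the 10 with the largest differences each way (groups apart and a mean of at least 10 TPM in the higher group), all tested receptors, clade A phosphatases, SnRK2 and ABF or ABI5 members, and from each other list up to 5 called genes with the highest TPM and the most abundant gene not called; a few of these are not reported here.

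The alternatives were pseudocounts of 0.1 and 1, a filter on the mean or none, median-ratio scaling, quantile normalization, RPKM, no trend, all 12 samples, the replicate block with and without median-ratio scaling, voom on recovered reads, and each of the 6 samples left out. Tested on simulated data of 15686 genes, 200 of them changed 4-fold, the fit called 193 of the 200 (96.5%) and 1 unchanged gene. The simulation took only genes of higher WT level, with independent noise and no shift of the median gene. Its rates therefore do not carry over to low genes, or to data with a shifted median and a WT replicate that stood apart. Tables and motif searches were made with Python 3.11.15 and pandas 2.3.3.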

Additional observations from a re-analysis of the deposited data

Results flagged for a closer look

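The 20 genes with the largest differences under iSB09 were also compared with the mock samples, by limma over all 12 samples, as the genotype difference (CsPYL1-5m minus WT) under iSB09 minus the genotype difference in mock seedlings. The genes were chosen on their difference under iSB09, so that these values describe them and are not independent evidence. A difference between the treated and mock contrasts was found for 19 of the 20, at limma adjusted p of 6.26e-09 to 0.0210. For desiccation genes of the higher set it was 7.08 on the log2 scale for RD29B, 6.35 for LEA7, 6.19 for AT3G02480, 6.11 for AT3G15670 and 6.09 for AT3G17520. For the galactinol synthase gene GOLS2 it was 6.14 and for the phosphatase gene HAI3 it was 6.26, while the genes of less known product, AT3G27250, AT5G05220 and AT5G50360, had 6.33, 6.29 and 6.04. In the lower set it was −4.45 for WRKY49, −3.96 for PMT6, −3.45 for AT1G15125, −3.21 for AT2G26440, −3.12 for ACD6, −2.99 for the receptor gene PYL4, −2.92 for MAM3, −2.70 for EXPA8 and −2.27 for LURP1. The peroxidase gene AT5G39580 had −3.36 and missed the threshold (limma adjusted p = 0.0693).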

How the results depend on the processing

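The 1239 higher and 882 lower genes became 1131 to 1543 higher and 556 to 1040 lower genes over the 18 alternatives. Median-ratio scaling gave 556 lower genes, and 557 together with the replicate block, since it removes the shift of the median gene; with 1 sample left out the counts were 1157 to 1301 higher and 693 to 1023 lower. The replicate block alone gave 1241 higher and 877 lower genes. It ended the calls of PR2 and CBP60G, and of no other gene named by rule. The main fit used no replicate block, since the study's methods state none. Deviations from the group mean had correlations of −0.011 to 0.080 between samples of the 2 genotypes with the same number. Between samples with different numbers they were −0.087 to 0.063. Of the 276 genes named by rule, 212 were called, and none of these changed sign in any alternative. Of the alternatives that could be fitted (voom covered no plastid gene, PYL6 missed the filter on RPKM, and CESA10 missed that and the filter on the mean), the higher calls held under all for 124 of 139 genes and the lower calls for 44 of 73, of which 25 were lost under median-ratio scaling. Of the 64 genes not called, 10 were called under at least 1 alternative. Another 10, all with differences near 0, changed sign, and the cause was not tested. Median-ratio scaling, with or without the block, gave 0.10 for SCRM, 0.11 for XTH24, 0.14 for ARR4, 0.054 for GLN2 and 0.053 for CAB1. Quantile normalization gave −0.0060 for TPS7, 0.014 for SCRM, 0.017 for ARR4, −0.084 for ATCG00220 and −0.036 for PYK10, and ARR4 had 0.019 from RPKM and 0.021 from voom. With 1 sample left out the ranges were −0.018 to 0.13 for PYL9, −0.12 to 0.17 for HVA22A, −0.056 to 0.081 for TPS7, −0.13 to 0.034 for XTH24, −0.071 to 0.029 for ARR4, −0.28 to 0.038 for CAB1 and −0.11 to 0.12 for ATCG00220. Depth limits genes whose WT values rest on a few reads, such as HAI3, AHG1, HSFA6A and APX2, more than the others.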
